A study of Homo sapiens with 4 samples.

Results

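The kinases SIK1, SIK2 and SIK3, NUAK1 and NUAK2, MARK1 to MARK4 and MELK are relatives of AMPK, the energy sensor kinase, and were followed in BT474 cells after treatment with AICAR. They were taken by gene symbol: every probe set (a group of array probes summarized as 1 value) annotated to exactly 1 of these symbols and to no other gene. This gave 25 probe sets for 9 of the 10 genes, out of 19775 genes with such a probe set on the array. The single probe set listed for NUAK2 is also listed for AKIP1, so no value is given for NUAK2. None of the 9 kinase genes, each read on its probe set with the highest mean, passed the test in either direction. The 95% confidence intervals of these 9 differences all lay between 0.772-fold and 1.29-fold of the vehicle level. Another SIK3 probe set, 204157_s_at, reached outside this range, at 1.14-fold to 1.66-fold, and did not pass either.

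BT474 is a widely used human breast cancer cell line that carries an amplified ERBB2 (HER2) gene. The vehicle group received vehicle alone and the AICAR group 0.5 mM AICAR, both for 24 h in regular DMEM, with 2 arrays per group and 4 in all. AICAR is a nucleoside that cells phosphorylate to ZMP, which mimics AMP and activates AMPK. The labels name 1 cell line and 1 dose, and they do not say whether the replicates of a group were separate cultures, so every p-value here reflects the spread among these arrays alone, which could be technical. Total RNA was hybridised to Affymetrix arrays of 54675 probe sets, and values are log2 expression levels as deposited.

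The AMPK-related kinases share the AMPK type of catalytic domain, and most of them are switched on by LKB1, the same upstream kinase that phosphorylates AMPK; MELK is the exception and does not depend on it. The salt-inducible kinases (SIK) hold the CRTC coactivators of CREB and the class IIa histone deacetylases in the cytoplasm by phosphorylating them, and SIK1 is itself a CREB target gene. NUAK kinases act on the myosin phosphatase, MARK kinases (the mammalian PAR-1 proteins) on microtubule-associated proteins and cell polarity, and MELK is a kinase whose transcript is abundant in dividing cells. These kinases are regulated largely by phosphorylation, which an RNA array does not measure.

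The 4 arrays had similar distributions, with medians of 6.37 to 6.40 (log2), and replicate arrays correlated at r = 0.997 across probe sets, which are not independent replicates. All 10 luminal and HER2 amplicon markers of the line (ERBB2, GRB7, ESR1, GATA3, FOXA1, KRT8, KRT18, KRT19, EPCAM and CDH1) lay above the bound for dim genes, the 30th percentile of gene means at log2 6.11. Of these 1 fell, the estrogen receptor ESR1 (log2 -0.31, limma adjusted p = 0.0411). With the mean of its 9 probe sets ESR1 differed by -0.04 and did not pass (0.773). Nor did it pass without the dim filter (0.0845), after quantile normalization (0.0586) or with a block for the replicate number (0.0609). It passed with the dim filter at the 50th percentile, with median centring, and with a variance trend and robust moderation. Of 17 stromal, endothelial and blood markers, 15 had a probe set and 8 lay above that bound, among them the collagen gene COL1A1, which fell by 0.63 on the log2 scale (limma adjusted p = 0.0209; 0.0727 with the mean of its 5 probe sets). Of the other 7 none was called, and over the 8 the median was 0.02 with 5 positive. Below the bound lay COL1A2, COL3A1, LUM, CDH5, KDR, PTPRC and LYZ.

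Because SIK1 is a CREB target, the 250 bases before the annotated start of each kinase gene were searched for the cAMP response element. The RefSeq promoter table (GRCh38.p14) held 9 of the 10 kinase genes, MARK2 with 2 starts. The whole element, TGACGTCA, was in none of these 10 windows and in 1.65% of the 35116 windows of the table. Its half-site, TGACG on either strand, was in 5 of the 10 and in 21.2% of all windows. The 3 SIK promoters held 7 of the 9 half-sites found and are shown 5′ to 3′ on the strand of the gene, with each half-site in capitals (CGTCA where it lies on the other strand). The SIK1 window lies at chr21:43427132-43427381 (minus strand), the SIK2 window at chr11:111602199-111602448 (plus strand) and the SIK3 window at chr11:117098429-117098678 (minus strand). None of the 3 windows overlaps an annotated gene in the RefSeq gene table.
SIK1: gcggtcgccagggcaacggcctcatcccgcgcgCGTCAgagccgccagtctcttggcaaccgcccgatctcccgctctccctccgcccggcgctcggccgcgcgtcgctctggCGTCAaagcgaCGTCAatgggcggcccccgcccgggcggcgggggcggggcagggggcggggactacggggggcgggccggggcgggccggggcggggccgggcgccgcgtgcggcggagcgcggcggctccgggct
SIK2: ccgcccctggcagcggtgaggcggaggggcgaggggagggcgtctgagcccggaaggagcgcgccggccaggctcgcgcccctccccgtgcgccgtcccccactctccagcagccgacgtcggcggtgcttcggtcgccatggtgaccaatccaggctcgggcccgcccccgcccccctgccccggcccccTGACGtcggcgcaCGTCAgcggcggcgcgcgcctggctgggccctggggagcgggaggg
SIK3: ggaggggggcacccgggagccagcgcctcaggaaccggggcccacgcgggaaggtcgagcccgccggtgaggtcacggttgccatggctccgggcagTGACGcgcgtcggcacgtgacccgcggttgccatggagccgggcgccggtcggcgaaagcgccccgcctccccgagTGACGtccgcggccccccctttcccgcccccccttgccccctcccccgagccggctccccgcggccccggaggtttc
The SIK1 window held 3 half-sites, the nearest 122 bases before the start, and the SIK2 and SIK3 windows held 2 each. MARK3 and MARK4 held 1 each, and MARK2, NUAK1, NUAK2 and MELK held none. The promoters were also searched on both strands for motifs of genes active in dividing cells, the CHR (TTTGAA or TTCGAA, in 14.3% of all windows) and the E2F site (TTTCGCGC, TTTGGCGC or TTTCCCGC, in 2.32%). The CHR letters were in none of the kinase windows, MELK included, and the E2F letters in that of SIK3 alone. A match is a description of the letters, not a site shown to be used.

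The comparison of AICAR with vehicle asked whether transcripts of the AMPK family's relatives changed after treatment with a compound that is used to activate AMPK; AMPK activity itself was not measured here. For each gene the probe set with the highest mean was tested with limma across all 13842 genes above the dim bound, and rose or fell is used of an adjusted p under 0.05 (Benjamini-Hochberg, two-sided). All 9 kinase genes with a probe set passed the dim bound and were tested. Passing this bound does not show that a transcript is present. The stromal marker PDGFRB and the endothelial marker PECAM1 had means of 7.22 and 7.23. NUAK1, with a mean of 6.60, and MARK1, with 6.80, lay below both, so their values may be background. Of the 9 kinase genes, 0 rose and 0 fell, against 9.82% of all genes tested that were called (4.63% higher and 5.19% lower). Before adjustment the counts at p under 0.05 were also 0 and 0, with limma, against 12.8% of all genes tested higher and 13.3% lower. Their adjusted p-values ran from 0.285 to 0.967. The median of their differences was -0.08 (log2), with 7 negative and 2 positive, beside 0.01 over all genes tested. The values of AICAR and vehicle did not overlap in 4 of the 9 genes, 1 higher and 3 lower, whereas 56.6% of all genes tested had no overlap (28.5% higher and 28% lower).

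**Figure D1:**
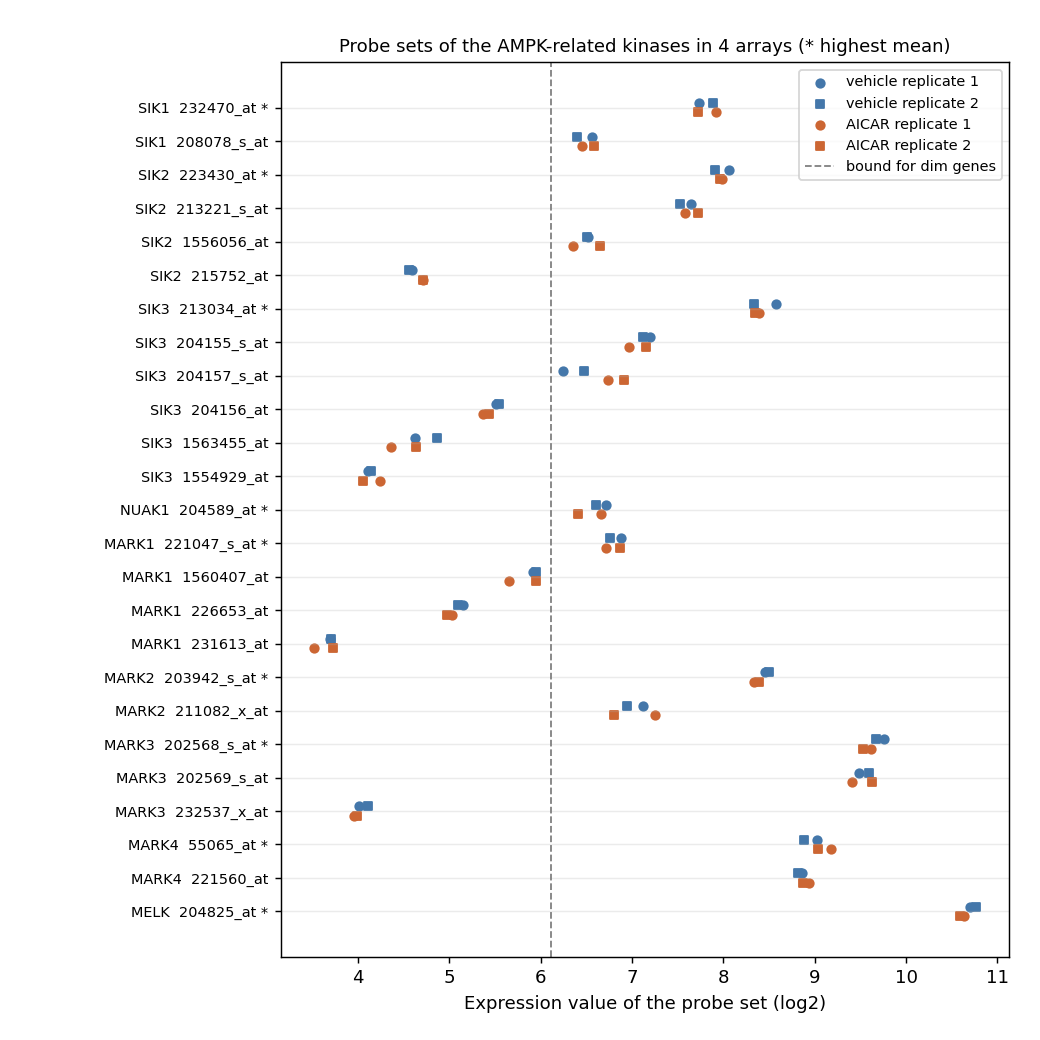
Deposited expression value (log2) of each of the 25 kinase probe sets in the 4 arrays, vehicle in blue and AICAR in orange, circles for replicate 1 and squares for replicate 2; an asterisk marks the probe set with the highest mean of its gene and the dashed line the bound for dim genes at 6.11. The arrays of the 2 groups lie close together in every row, and the separation is widest for the SIK3 probe set 204157_s_at.

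Among the salt-inducible kinases, SIK1 read 7.74 and 7.88 (log2) in the vehicle arrays and 7.91 and 7.72 in the AICAR arrays. The groups overlapped fully, and the difference was 0.01 (log2, 95% confidence interval -0.22 to 0.24, limma adjusted p = 0.967). Its second probe set, 208078_s_at, differed by 0.03, but the accession listed for that probe set is one of ZEB1 in the RefSeq gene table, so which transcript it reads is uncertain. SIK2 stood at 8.07 and 7.91 with vehicle and at 7.98 and 7.96 with AICAR. Both AICAR values lay inside the vehicle range, and the difference was -0.02 (-0.21 to 0.17, limma adjusted p = 0.912). Its 3 other probe sets differed by 0.07, -0.01 and 0.14, the last one below the dim bound.

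SIK3, the member with the most probe sets, read 8.57 and 8.33 with vehicle and 8.39 and 8.35 with AICAR on its highest probe set, 213034_at. The AICAR values again lay within the vehicle range, for a difference of -0.08 (log2, -0.31 to 0.14, limma adjusted p = 0.623). The 6 probe sets of SIK3 did not move together in value: 4 differences were negative and 2 positive, from -0.25 to 0.46. The highest belonged to 204157_s_at, which read 6.25 and 6.48 with vehicle and 6.74 and 6.91 with AICAR. These values lie below the mean of the stromal marker PDGFRB, 7.22, and may be background. Both AICAR arrays were above both vehicle arrays, a 1.38-fold difference (log2 0.46, SE 0.114, 95% confidence interval 0.19 to 0.73). In the limma fit of all 54613 probe sets that are no controls it had an unadjusted p of 0.00491 and an adjusted p of 0.105, so it did not pass. It passed with a variance trend and robust moderation (limma adjusted p = 0.0465). In the separate fit of genes, that setting called 17.8% of genes tested in place of 9.82%. The share of all probe sets called under it is not given here. The probe set 204155_s_at, also above the dim bound, differed by -0.10. The remaining 3, at -0.13, -0.25 and 0.03, lay below the bound.

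Whether the probe sets of 1 gene differed in their response was tested directly, as each other probe set minus the highest one on the same array, over all 21316 such pairs on the array. Of the 16 pairs of the kinase genes 0 passed, against 0.239% of all pairs, and 1 had an unadjusted p under 0.05 (limma), where 14.5% of all pairs did. That pair was 204157_s_at against 213034_at of SIK3, whose responses differed by 0.55 (log2, 95% confidence interval 0.14 to 0.96, unadjusted p = 0.0159, adjusted p = 0.229 in limma). Which SIK3 transcripts each probe set reads was not analysed here.

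NUAK1, the myosin phosphatase kinase also known as ARK5, has 1 probe set. It read 6.72 and 6.60 with vehicle and 6.66 and 6.41 with AICAR, with overlapping groups. The difference was -0.13 (log2, SE 0.102, -0.37 to 0.12, limma adjusted p = 0.471), the widest interval of the 9 genes, and it was -0.0025 without AICAR replicate 2.

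The 4 MARK kinases, which phosphorylate tau, MAP2 and MAP4, had 11 probe sets with differences from -0.14 to 0.15. MARK1 read 6.88 and 6.76 with vehicle and 6.71 and 6.87 with AICAR, a difference of -0.03 (log2, -0.23 to 0.18, limma adjusted p = 0.873). The groups overlapped, and its 3 other probe sets lay below the dim bound at -0.13, -0.11 and -0.07. MARK2 read 8.45 and 8.50 with vehicle and 8.33 and 8.39 with AICAR. Both AICAR arrays were below both vehicle arrays by a small margin, at -0.11 (-0.28 to 0.05, adjusted p = 0.355), while its second probe set differed by 0.0012 with the AICAR arrays on either side of the vehicle arrays.

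MARK3, also known as C-TAK1, which phosphorylates the cell cycle phosphatase CDC25C, read 9.76 and 9.67 with vehicle and 9.62 and 9.53 with AICAR. The AICAR arrays were lower in both replicates and the difference of -0.14 (log2, -0.32 to 0.04) had the lowest adjusted p of the kinase genes, 0.285 in limma. Its other probe set above the dim bound, 202569_s_at, overlapped between the groups at -0.02. MARK4 went the other way in value, with 9.03 and 8.88 under vehicle and 9.18 and 9.04 under AICAR. Both AICAR arrays were above both vehicle arrays, the upper vehicle array and the lower AICAR array being 9.03 and 9.04, and the difference was 0.15 (-0.06 to 0.36, limma adjusted p = 0.323). Both MARK4 probe sets were positive, the second at 0.06, and the groups did not overlap on either.

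MELK, the member tied to cell division, read 10.70 and 10.76 with vehicle and 10.63 and 10.60 with AICAR on its 1 probe set. The AICAR arrays lay below the vehicle arrays, and the difference was -0.12 (log2, 1.09-fold, SE 0.0685, 95% confidence interval -0.28 to 0.05, limma adjusted p = 0.329), so MELK did not pass.

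**Figure D2:**
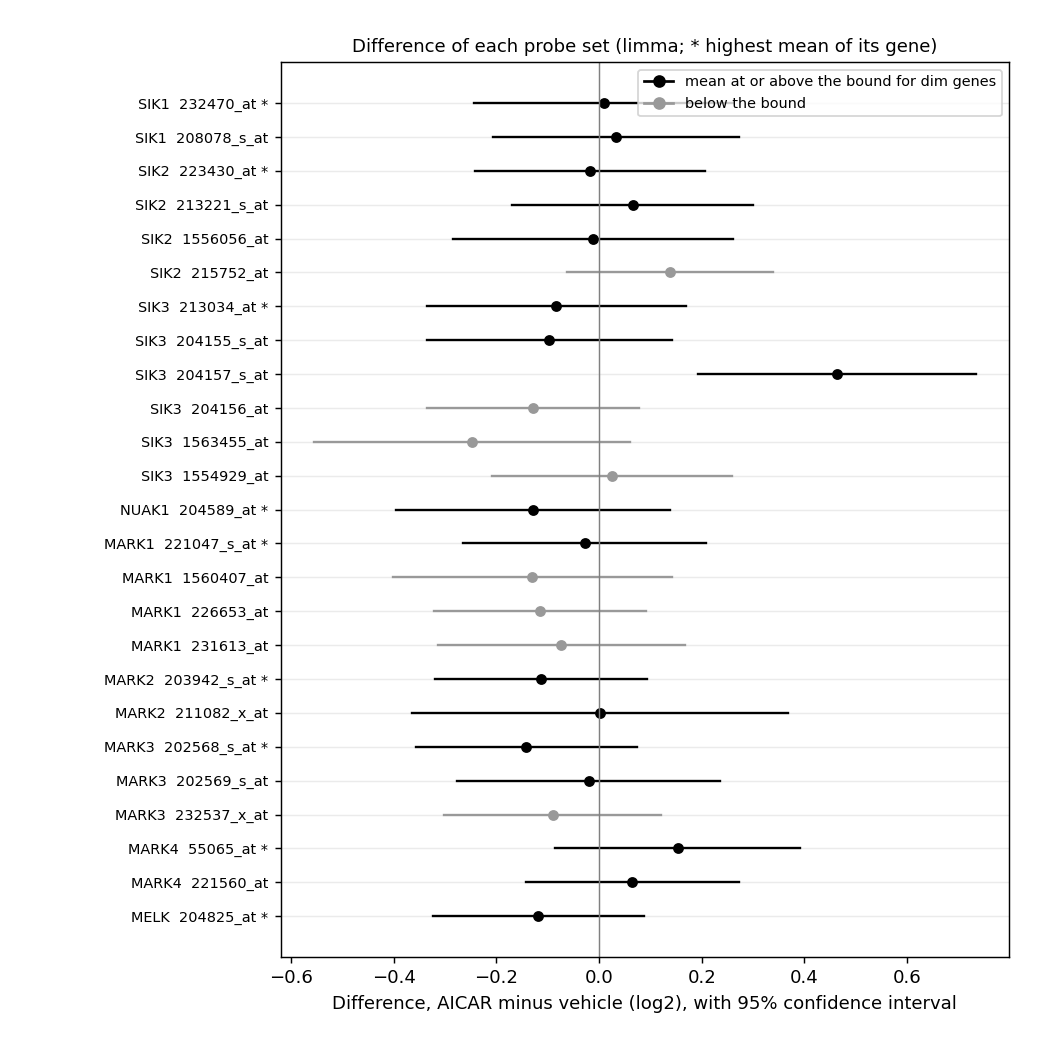
Difference of each kinase probe set, AICAR minus vehicle (log2), as a point with its 95% confidence interval from limma; grey rows have a mean below the dim bound. The interval includes 0 in every row except SIK3 204157_s_at, which spans 0.19 to 0.73.

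Taken by probe set, 0 of the 25 were called higher and 0 lower (limma), against 1.49% of all probe sets (0.599% higher and 0.888% lower); with no adjustment, 1 was higher and 0 were lower at p under 0.05, against 6.92% and 9.19% of all probe sets. Of the 25, 17 had a mean above the dim bound, 10 with a negative and 7 with a positive difference. The groups did not overlap in 10, with AICAR above in 4 and below in 6, while 46.9% of all probe sets had no overlap (23.6% above and 23.3% below). The median over the kinase probe sets was -0.03 (log2) and that over all probe sets 0.01.

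Lists of genes around the kinases, among them genes that switch them on or that they act on, were read in the limma fit of genes. Over all genes tested in that fit 4.63% rose and 5.19% fell. At an unadjusted p under 0.05 (limma), 12.8% were higher and 13.3% lower. Of 6 AMPK subunits tested, 1 rose and 0 fell, with a median of -0.08. It was the regulatory subunit PRKAG1, which binds AMP, at 10.80 and 10.76 with vehicle and 11.26 and 11.25 with AICAR (log2 0.48, SE 0.0667, limma adjusted p = 0.0137). The LKB1 complex, the upstream kinase with its activators, had 0 of 5 genes past the threshold and 1 higher at an unadjusted p under 0.05, with a median of 0.10; the pseudokinase STRADB differed by 0.25 (adjusted p = 0.0669) and the scaffold CAB39L by 0.19 (0.209; its 3 probe sets ran from -0.37 to 0.19, 2 of them negative). STRADB passed with the dim filter at the 50th percentile (limma adjusted p = 0.0327), after quantile normalization (0.0401) and with a variance trend and robust moderation (0.0143). These settings called 18.3%, 10.7% and 17.8% of all genes tested. The list median was -0.02 when each gene took its averaged probe sets. Among the other AMPK-related kinases, 0 of the 3 tested passed, and 0 at an unadjusted p under 0.05. SNRK differed by -0.22 (adjusted p = 0.205) and BRSK2 by 0.20 (0.211), while BRSK1 and NIM1K were dim.

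The direct SIK substrates, the CRTC coactivators and class IIa deacetylases, had 0 of 6 past the threshold, with 1 above and 1 below 0 at p under 0.05 before adjustment (limma) and a median of 0.02. CRTC1 differed by 0.24 (log2, adjusted p = 0.174) and HDAC4 by -0.20 (0.146). Of 11 CREB and CRTC target genes tested, 1 rose and 1 fell, with a median of 0.04 (-0.0051 without AICAR replicate 2). DUSP1, a phosphatase that switches off MAP kinases, read 9.21 and 9.35 with vehicle and 9.91 and 10.12 with AICAR (1.67-fold, log2 0.74, SE 0.0961, limma adjusted p = 0.0116), and its 3 probe sets ranged from 0.05 to 0.74, with a mean of 0.37. SGK1, a serum- and glucocorticoid-inducible kinase, read 7.69 and 7.67 with vehicle and 7.09 and 7.30 with AICAR, a fall of 1.40-fold (log2 -0.49, SE 0.0897, limma adjusted p = 0.0254), which did not pass without AICAR replicate 1 (0.0512).

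Around NUAK, 0 of 8 genes of the myosin phosphatase and light chains passed (limma), 1 being higher at an unadjusted p under 0.05; the list median was 0.15 with 7 of 8 positive, led by the light chain MYL12A (log2 0.29, adjusted p = 0.162; its 4 probe sets ran from -0.50 to 0.29) and the catalytic subunit PPP1CB (0.19, adjusted p = 0.458; -0.37 to 0.19). When probe sets were averaged per gene the median was 0.07, and 4 of the 6 genes then tested were positive. With a variance trend and robust moderation 1 gene of this list was called higher, where 17.8% of all genes tested were called. Among 16 MARK substrates and polarity genes, 1 rose and 0 fell, against 4.63% and 5.19% of all genes tested. The list median was 0.08, and -0.02 when probe sets were averaged per gene. The count of higher genes was 0 to 2 over the alternatives that kept all 4 arrays. The polarity gene SCRIB was called lower with a variance trend and robust moderation (log2 -0.21, limma adjusted p = 0.0399), the setting that called 17.8% of all genes tested. The microtubule-associated protein gene MAP2 read 5.99 and 5.62 with vehicle and 6.96 and 6.94 with AICAR, 2.21-fold higher (log2 1.14, SE 0.122, 95% confidence interval 0.85 to 1.44, limma adjusted p = 0.00776). Both vehicle values lay below the dim bound of 6.11, so MAP2 entered the test through its AICAR values, and its other probe set differed by 0.14; averaged over both, the gene was dim and not tested. The related genes MAP4 (0.15, adjusted p = 0.279) and MAPT (0.01, 0.927) did not pass. The 14-3-3 proteins, which bind the phosphorylated targets of SIK and MARK kinases, had 0 of 7 past the threshold. Before adjustment 1 was higher and 1 lower at p under 0.05 (limma). YWHAE was at -0.25 (adjusted p = 0.0902), YWHAH at 0.20 (0.151) and the median at 0.03 (-0.0122 without AICAR replicate 2). With the dim filter at the 50th percentile 1 was called lower, where 18.3% of all genes tested were called. With a variance trend and robust moderation 1 was called higher and 1 lower, where 17.8% of all genes tested were called.

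**Figure D3:**
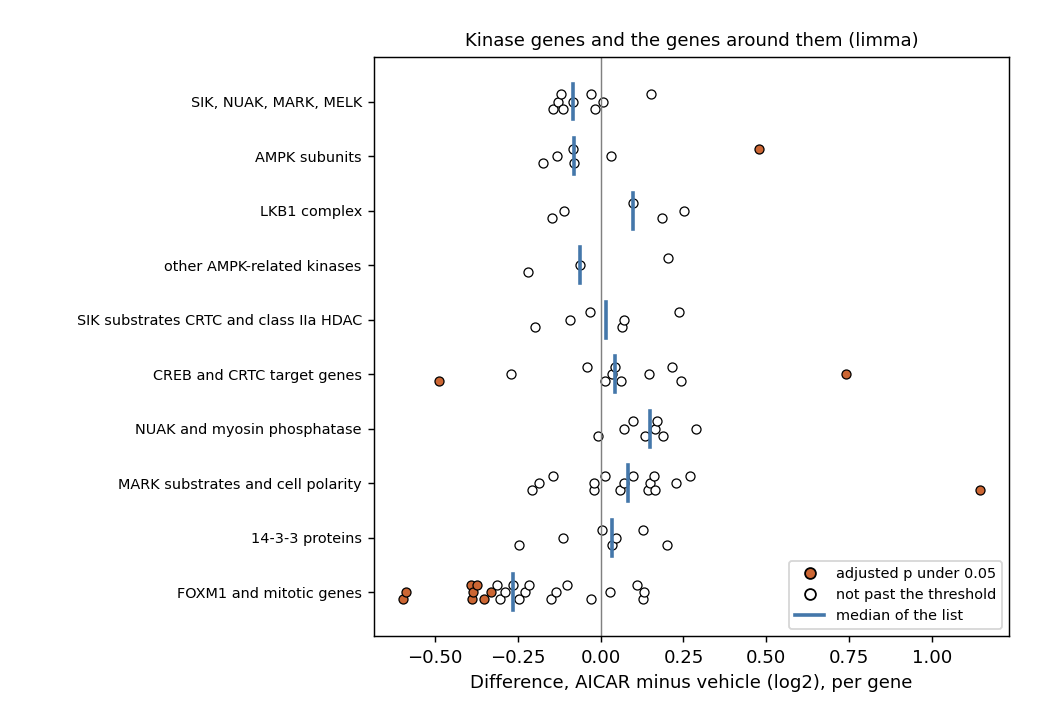
Difference of each tested gene, AICAR minus vehicle (log2), in the kinase group and 9 lists of genes around it, chosen with earlier results of these data known. Not all lists are upstream or downstream of the kinases, and the mitotic genes are shown for comparison with MELK. Filled points passed an adjusted p under 0.05 and the bar is the median of the row. The kinase row has no filled point and a median of -0.08, and the row of FOXM1 and mitotic genes has 8 filled points, all negative, and a median of -0.27.

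MELK was set beside FOXM1 and mitotic genes, with which its transcript is known to vary across dividing cells. Of 23 tested, 0 rose and 8 fell (34.8%, against 5.19% of all genes tested that were lower), with a median of -0.27 (log2). The list was chosen with earlier results of these data known, so this share is a description only. With the dim filter at the 50th percentile, which keeps the brighter genes, 12 of the list and 990 of all 9888 genes tested fell. Cyclin B1 (CCNB1, -0.59), the topoisomerase TOP2A (-0.585), the kinesin KIF20A (-0.39) and cyclin B2 (CCNB2, -0.39) fell furthest, with limma adjusted p-values of 0.00874, 0.0149, 0.0226 and 0.0274; averaged over its 3 probe sets CCNB2 was at -0.19 and not called (0.130). The difference of MELK, -0.12, was smaller than this median, but its interval of -0.28 to 0.05 includes it, and the difference between MELK and these genes was not tested. The regulator FOXM1 differed by -0.03 (adjusted p = 0.841). The count of 8 was 3 without the dim filter, 13 with a variance trend and robust moderation, 5 without AICAR replicate 1 and 2 without AICAR replicate 2. It was 0 without vehicle replicate 1 or vehicle replicate 2, and these fits called 0.867% of all genes. In those 2 fits PRKAG1 (log2 0.50 and 0.46), DUSP1 (0.67 and 0.81) and SGK1 (-0.48 and -0.49) did not pass either. The difference of MAP2 was 1.33 and 0.96 there. Both vehicle values of MAP2 lay below the dim bound, so it was tested only through its AICAR values.

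Across the processing choices that kept all 4 arrays, 0 kinase genes passed, where 3.66% to 18.3% of all genes tested were called. MARK2, MARK3, MELK and NUAK1 stayed negative and MARK4 positive in every alternative run for them, and the lowest adjusted p of any kinase gene in any of them was 0.155 (limma), that of NUAK1 without AICAR replicate 1. SIK1, SIK2, SIK3 and MARK1 changed sign in at least 1 alternative. SIK3 ran from -0.20 without vehicle replicate 2 to 0.04 without vehicle replicate 1.

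**Figure D4:**
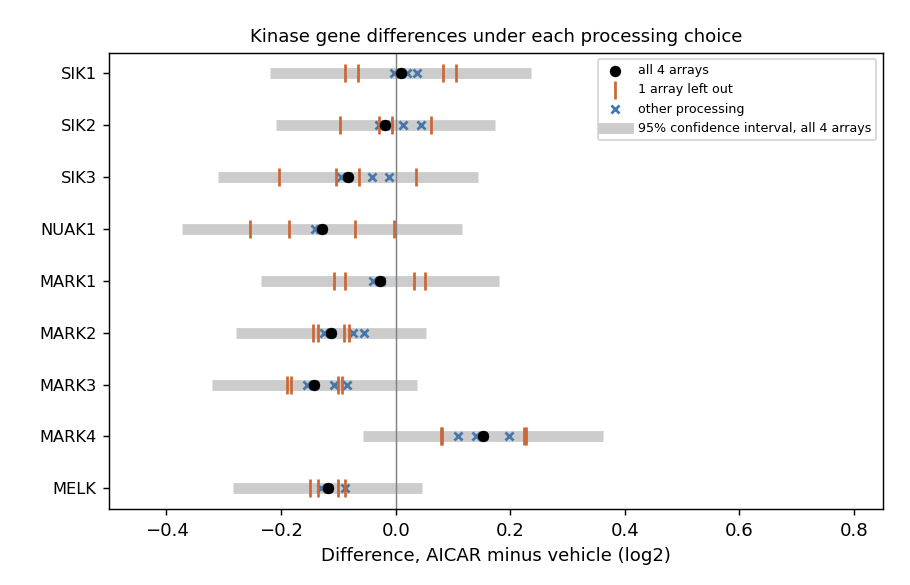
Difference of each kinase gene, AICAR minus vehicle (log2), with all 4 arrays (black point) and its 95% confidence interval (grey bar), with 1 array left out (orange ticks) and under the other processing choices (blue crosses). MARK2, MARK3, MELK and NUAK1 stay left of 0 and MARK4 right of it, and the ticks and crosses lie within the grey bar of their gene.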

How the data were processed

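Expression was measured in BT474 cells treated with vehicle or AICAR, 2 arrays each. The deposited values are log2 expression per probe set, which the authors had normalized before deposit. The submitters' processing notes name Affymetrix Expression Console; its version and summarization method were not given in the sources used here. Changes of dim probe sets may therefore be compressed. Arrays give no read depth; their number limits the precision.

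Of 54675 probe sets, 62 are controls; 41091 carry 1 gene symbol in the platform annotation (1801 carry several), and 41043 of these symbols were brought up to date by Entrez ID from the GRCh38.p14 table of RefSeq genes. A gene is represented by its probe set with the highest mean; genes below the 30th percentile of gene means were left out. Differences came from moderated linear models in limma 3.58.1 under R 4.3.3, fitted per gene, per probe set and per pair of probe sets, and adjusted by Benjamini-Hochberg over each whole table; the code was tested on simulated data. An exact permutation test of 2 against 2 arrays cannot go below p = 0.333 and was not used.

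The members and lists were chosen with earlier results of these data known. The text names every kinase probe set by value or range, and of each list the called genes, at most the 4 with the largest difference, or the 2 largest where none was called; ESR1, COL1A1, MAP4, MAPT and FOXM1 were chosen once their values had been seen. Alternatives were other dim filters, quantile normalization, median centring, a variance trend with robust moderation, the mean of all probe sets, a threshold of 0.1, a block for the replicate number, and fits without 1 array. Protein sequences were not analysed here.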

Additional observations from a re-analysis of the deposited data

How the results depend on the processing

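The counts of 0 kinase genes higher and 0 lower held under every alternative run, including an adjusted p under 0.1, the replicate block and each array left out, and so did the 0 pairs of probe sets under theirs. MARK1 and NUAK1 were dim at the 50th percentile, and MARK1 with the mean of all probe sets, so these gave no value. Of the kinase probe sets, 1 was called with a variance trend and robust moderation (SIK3 204157_s_at, adjusted p = 0.0465), and 0 under the other alternatives; its difference stayed between 0.35 and 0.58. The median of the kinase genes, -0.08, was -0.0408 after quantile normalization, -0.0336 with the mean of all probe sets, and -0.0902 to -0.0632 with 1 array left out.

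Signs turned in 9 of 96 alternatives of the kinase genes and 13 of 138 of their other probe sets, none past the threshold; the cause was not tested. The difference became -0.00331 for SIK1 and -0.0107 for MARK2 211082_x_at with median centring, 0.0135 for SIK2 and 0.0100 for MARK3 202569_s_at after quantile normalization, and 0.0435 for SIK2 with the mean of all probe sets. With 1 array left out, the differences that turned ran from -0.0886 to 0.11 for SIK1, -0.0971 to 0.0613 for SIK2, -0.20 to 0.0363 for SIK3, -0.11 to 0.0519 for MARK1, -0.0495 to 0.11 for SIK1 208078_s_at, -0.00993 to 0.14 for SIK2 213221_s_at, -0.16 to 0.13 for SIK2 1556056_at, -0.0691 to 0.12 for SIK3 1554929_at, -0.27 to 0.014 for MARK1 1560407_at, -0.18 to 0.0314 for MARK1 231613_at, -0.22 to 0.23 for MARK2 211082_x_at and -0.13 to 0.0922 for MARK3 202569_s_at.

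No label ties the replicates that share a number. The deviations of same-numbered arrays from their group means correlated at r = -0.07, so the replicate block was not used for the report. With it 0 kinase genes passed, and 577 genes were higher and 586 lower in place of 641 and 718. Of all calls 47.2% were higher, and 57.8% after quantile normalization. The standard errors of the kinase genes were 0.0685 to 0.102 (log2), and differences anywhere inside the intervals given could go uncalled. STRADB, at 0.25 with a smaller standard error of 0.0673, did not pass (limma adjusted p = 0.0669).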
